A study of Homo sapiens with 24 samples.

Results

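The cell cycle and mitosis transcripts followed here are 12 Ensembl transcript IDs of 10 genes, chosen by name as regulators or markers of the dividing cell. Of these, 10 transcripts, 1 per gene, were present in both deposited tables, among 11396 transcripts listed in either table. The remaining 2 IDs, ENST00000618014 of CCNA2 and ENST00000372462 of CDC20, were in neither table. The tables list IDs without gene names, so the symbols are those given with the choice of IDs. All samples were MDA-MB-231, a human breast cancer cell line, grown in the same medium and harvested before confluence. The parental cells were labelled poorly metastatic and the LM2 cells highly metastatic to lungs. The other pair, both labelled poorly metastatic, was a control with a control guide (sgCTRL) and an HNRNPC knockdown (sgHNRNPC), HNRNPC being a nuclear protein that binds RNA. Each of these 4 cell groups had 3 replicates of ribosome profiling (Ribo-seq), which counts the mRNA pieces covered by ribosomes, called footprints here, and 3 of RNA-seq on RNA isolated from the lysates, 24 libraries in all. The series was designed to compare translation efficiency, which here means footprints relative to RNA, between highly and poorly metastatic cells.

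Progress through the cell cycle is driven by cyclins, proteins that appear and disappear in phases and switch on cyclin-dependent kinases. CCND1 (cyclin D1) acts in G1 in response to growth signals, CCNA2 (cyclin A2) acts in S phase and G2, and CCNB1 (cyclin B1) activates CDK1 at entry into mitosis. PLK1 and AURKA are kinases that build the spindle, BUB1 and CDC20 act in the checkpoint that times chromosome separation, TOP2A untangles DNA, and MKI67 (Ki-67) coats mitotic chromosomes and is a widely used marker of proliferating tumour cells.

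Many genes of the G2 and M phases share promoter elements known as the CHR (cell cycle genes homology region) and the CCAAT box, bound by the DREAM or MuvB complexes and by NF-Y, and S-phase genes often carry E2F sites. RefSeq windows (GRCh38.p14) of 300 bases, from 250 before to 50 after the gene start, were found for 8 of the 10 genes, in 9 windows because CDK1 has 2 starts, whose windows share 153 bases. Windows of CCND1 and AURKA were not analysed here. The letters searched, on both strands, were TTTGAA for the CHR, CCAAT for the box of that name, and either TTTCGCGC or TTTGGCGC as E2F-like letters. The CCAAT letters were in 9 of 9 windows, against 34.6% of 35116 windows of the same length. The CHR letters were in 6 of 9, in both CDK1 windows and those of CDC20, MKI67, PLK1 and TOP2A, against 15.2% of all windows. By gene, CCAAT letters were found for 8 of 8 and CHR letters for 5 of 8. E2F-like letters were found for 1 of 8, CDK1, at 1 site that lies in both of its windows, beside 1.15% of all windows. These matches are a description of letters and not of binding. Only these exact letters were searched, so a window without a match is not shown to lack the element. The windows of CDK1 and CDC20 are printed because the RNA of these genes moved furthest, in opposite directions, in LM2 cells. Those of TOP2A and MKI67 are printed because their RNA, as deposited, was lower in both experiments. Each is printed from 5′ to 3′ on the gene's strand. Capitals mark every match, and a match on the other strand appears as its reverse complement.
CDK1 at its downstream start (chr10:60778228-60778527, plus strand): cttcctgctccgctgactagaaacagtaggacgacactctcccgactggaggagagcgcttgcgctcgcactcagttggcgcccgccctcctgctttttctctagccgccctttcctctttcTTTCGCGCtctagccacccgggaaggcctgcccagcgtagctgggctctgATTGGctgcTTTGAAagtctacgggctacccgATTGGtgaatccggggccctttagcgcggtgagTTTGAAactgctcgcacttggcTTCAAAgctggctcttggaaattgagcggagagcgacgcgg
CDC20 (chr1:43358731-43359030, plus strand): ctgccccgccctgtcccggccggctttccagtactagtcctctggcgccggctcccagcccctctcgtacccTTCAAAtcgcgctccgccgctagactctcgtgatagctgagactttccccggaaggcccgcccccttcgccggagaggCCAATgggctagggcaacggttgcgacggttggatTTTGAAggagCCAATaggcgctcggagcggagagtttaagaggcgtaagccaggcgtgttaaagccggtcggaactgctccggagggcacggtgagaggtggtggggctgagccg
TOP2A (chr17:40417847-40418146, minus strand): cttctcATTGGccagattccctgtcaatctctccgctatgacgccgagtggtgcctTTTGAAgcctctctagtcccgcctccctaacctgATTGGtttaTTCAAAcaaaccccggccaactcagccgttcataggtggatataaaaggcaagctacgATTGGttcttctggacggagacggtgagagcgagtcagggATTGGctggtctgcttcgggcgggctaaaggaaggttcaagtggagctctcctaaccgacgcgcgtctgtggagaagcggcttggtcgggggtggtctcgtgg
MKI67 (chr10:128126374-128126673, minus strand): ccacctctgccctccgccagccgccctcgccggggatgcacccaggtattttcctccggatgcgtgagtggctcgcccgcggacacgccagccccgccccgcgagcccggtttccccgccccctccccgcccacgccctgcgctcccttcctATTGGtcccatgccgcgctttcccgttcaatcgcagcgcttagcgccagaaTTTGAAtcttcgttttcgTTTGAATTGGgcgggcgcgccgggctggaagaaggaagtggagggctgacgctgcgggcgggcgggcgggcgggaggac
The CDK1 window held 3 CHR, 2 CCAAT and 1 E2F-like match, and that of TOP2A 4 CCAAT and 2 CHR matches. In CDC20 the CHR match nearest the start lay between 2 CCAAT matches, at position -65 with the CCAAT letters at -100 and -55, counted in bases from the start. In MKI67 a CHR and a CCAAT match overlap in the run TTTGAATTGG.

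**Figure D1:**
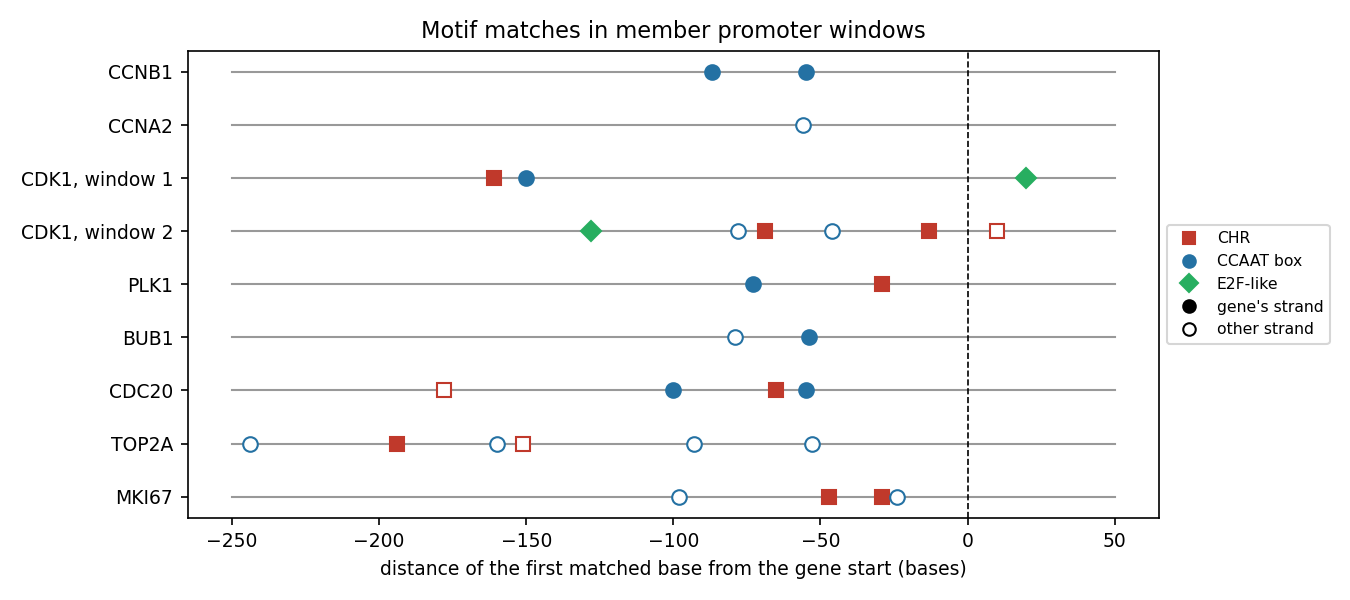
Positions of the CHR, CCAAT and E2F-like letters in the 9 promoter windows of 8 cell cycle genes. The horizontal axis is the distance of the first matched base from the gene start in bases, filled markers are matches on the gene's strand and open markers on the other strand. CCAAT letters appear in all 9 windows and CHR letters in 6.

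The table for LM2 and parental cells held 11252 transcripts, of which 9342 had a mean value of at least 10 in both assays and were tested, and the table for the knockdown and control guide cells held 10767, of which 8283 were tested. All 10 cell cycle transcripts present were tested in both. Values are the authors' normalized read signal per transcript. Low RNA values of a library lie at multiples of 1 step, and if that step is 1 read, RNA libraries held 26.8 M to 52.6 M reads for LM2 and parental cells and 23.3 M to 28.3 M for the control guide and knockdown cells. The files give no read counts, so these depths are estimates, and no count test was run. The depth behind the footprint values is unknown; libraries sum to 1023095 to 1134509 in the former experiment and 669584 to 753066 in the latter. The 10 transcripts ranged from 4999.9 to 53259 in RNA and from 317 to 1349 in footprints in the former, and from 2591 to 27883 and from 144 to 932 in the latter. HNRNPC itself and marker genes of the cell line were not analysed here, so the knockdown was not checked. Whether replicates came from separate cultures is not in the labels, and p-values therefore cover only the variation among these libraries, possibly technical. Because bulk lysates were measured, a smaller share of cells in a phase and less RNA per cell in that phase cannot be told apart.

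In LM2 cells the RNA of the 10 transcripts moved in both directions, with CDK1 highest and CDC20 lowest relative to parental cells. Of the 10, 8 passed the threshold of an adjusted p under 0.05 (limma, Benjamini-Hochberg over all transcripts tested), against 53.7% of all transcripts tested. Higher in LM2 cells were 5 (CDK1, BUB1, CCND1, PLK1 and AURKA), against 22.9% of all, and lower were 3 (CDC20, TOP2A and MKI67), against 30.8% of all. Their median log2 change was 0.048, beside -0.026 over all tested. Footprints passed the threshold for 3, against 23.8% of all, and all 3 (CDC20, CCND1 and TOP2A) were lower, against 14.5% of all. The median footprint change was -0.035, beside -0.001 over all tested. Translation efficiency passed for 2, against 1.63% of all, and both (CCND1 and CDK1) were lower in LM2 cells, against 1.16% of all. The median change of efficiency was -0.087, beside 0.041 over all tested. Among transcripts with a mean of at least 50 in each assay, 57.8% passed in RNA, 31.5% in footprints and 3.13% in efficiency. The numbers of calls among the 10 were then unchanged. Footprint SEs of the 10 were 0.077 to 0.084, below the median of 0.15 over all tested. The number of RNA calls fell from 8 to 4, with 3 higher, when the trend of variance on level was left out and also when the spread was taken from all 12 libraries. Over all transcripts tested, 48.9% passed in RNA in the former fit and 28.9% in the latter. CDK1, CCND1, BUB1 and CDC20 kept their RNA calls in both. Leaving out the trend also ended both efficiency calls and the footprint calls of CCND1 and TOP2A. Over all transcripts, 0.193% then passed in efficiency and 12.6% in footprints. A replicate block ended both efficiency calls too, and with footprints and RNA paired by number 0 of all transcripts tested passed in efficiency. Under quantile normalization the split of footprint calls turned from 0 higher and 3 lower to 3 higher and 1 lower, and that of efficiency calls from 0 higher and 2 lower to 1 and 1. Over all transcripts, footprint calls went from 9.25% higher and 14.5% lower to 9.84% and 11%. Efficiency calls over all went from 0.471% higher and 1.16% lower to 0.781% and 1.31%.

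In HNRNPC knockdown cells most of the 10 transcripts had lower RNA and lower footprints than in control guide cells, with TOP2A lowest in both. RNA passed the threshold for 9, against 73.5% of all transcripts tested. Lower were 7 (TOP2A, BUB1, CCNA2, CDK1, MKI67, PLK1 and CCNB1), against 45.4% of all, and higher were 2 (AURKA and CDC20), against 28% of all. The median RNA change was -0.25, beside -0.105 over all tested. Footprints passed for 6 (TOP2A, CDK1, CCNA2, BUB1, CCND1 and MKI67), against 36.2% of all, and all 6 were lower, against 20.7% of all. The median footprint change was -0.284, beside -0.036 over all tested. With no trend of variance on level the RNA calls of CCNB1 and CDC20 and the footprint calls of BUB1, CCND1 and MKI67 were lost. Over all transcripts, 71.6% then passed in RNA and 27.2% in footprints. With the spread taken from all 12 libraries the RNA calls of CCNB1 and CDC20 were lost as well, and PLK1 footprints passed (adjusted p 0.00876). The shares over all were then 49.8% in RNA and 49.4% in footprints. Translation efficiency passed for 0 of the 10 by limma, against 5.46% of all. At an unadjusted p under 0.05 there was 1 of 10, AURKA, beside 1731 of the 8283 transcripts tested. The median change of efficiency was -0.022, beside 0.087 over all tested. Among transcripts with a mean of at least 50 in each assay, 77.6% passed in RNA, 46.2% in footprints and 10.2% in efficiency. The numbers of calls among the 10 were then unchanged. Footprint SEs of the 10 were 0.097 to 0.108, below the median of 0.172 over all tested.

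The median RNA change over all transcripts in the knockdown table lay below 0 as deposited, at -0.105, and at 0.011 once each library was centred on its median. After centring, 8 of the 10 passed, with 2 higher and 6 lower and a median of -0.135, and over all transcripts 37.5% were higher and 36.2% lower. Quantile normalization gave 3 higher and 4 lower among the 10, and 37.7% higher and 35.7% lower over all. RNA changes in the knockdown are therefore given below both as deposited and, in the words "after centring", relative to the median transcript.

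The plot of changes with their intervals puts both experiments side by side for each gene. RNA intervals were narrow enough that a change of 0.12, that of CDC20 in the knockdown, passed the threshold, while footprint and efficiency intervals were wider.

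**Figure D2:**
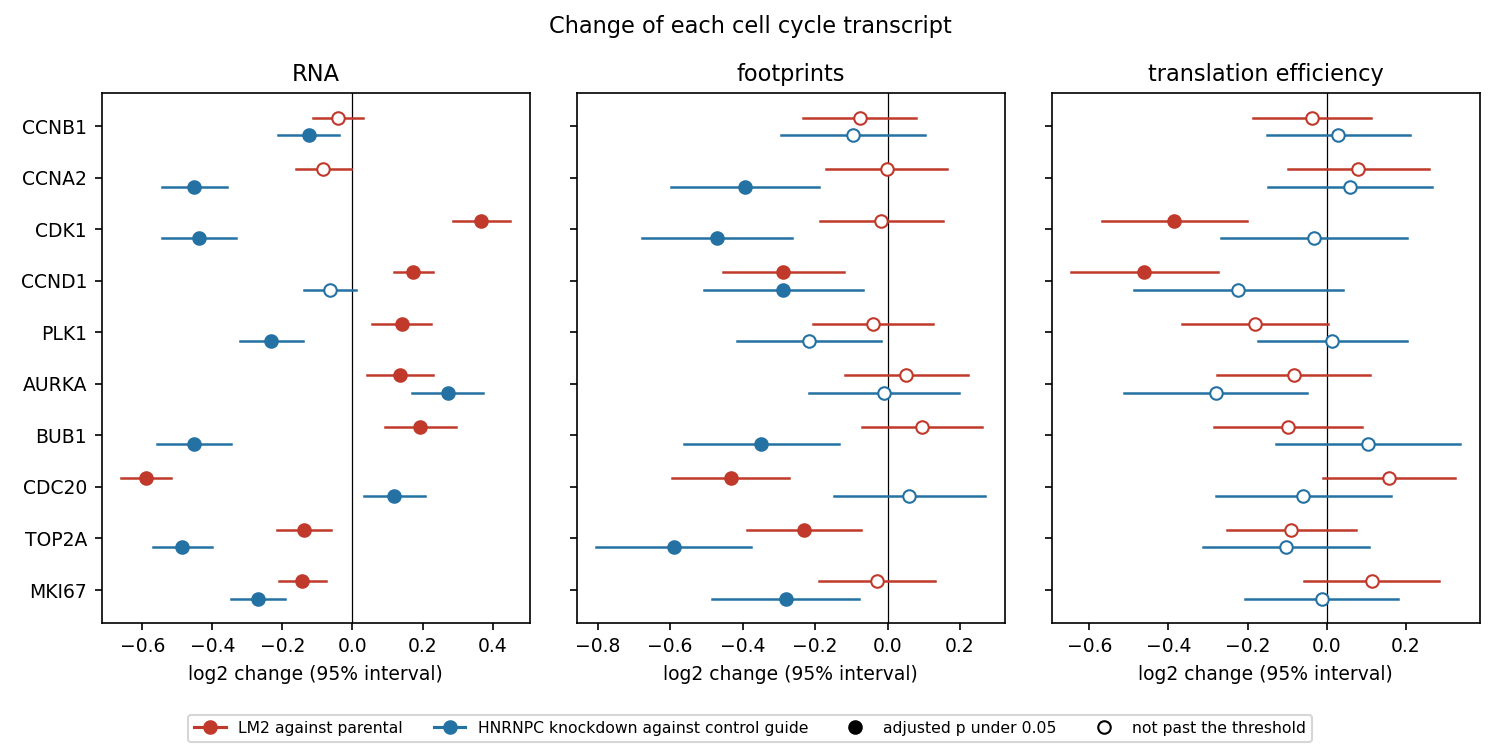
Log2 change with its 95% interval (horizontal axis) for each of the 10 transcripts (rows), in RNA, footprints and translation efficiency. Red is LM2 against parental and blue is HNRNPC knockdown against control guide, with filled points past an adjusted p of 0.05. RNA intervals are the narrowest. Filled left of 0 are 7 blue RNA points, against 45.4% of all transcripts tested. Of the efficiency points 2 are filled, CDK1 and CCND1 in LM2 cells, against 1.63% of all.

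CDK1 (ENST00000395284, gene at chr10:60778331-60794852, plus strand in GRCh38.p14) encodes the kinase that drives cells into mitosis. In replicates 1, 2 and 3 its RNA was 5256, 5231 and 5142 in parental cells and 6487, 6869 and 6822 in LM2 cells. Every LM2 library lay above every parental one, and the log2 change was 0.37 ± 0.039 (SE), a 1.29-fold level with an adjusted p of 8.73e-08 by limma. CDK1 footprints were 423, 375 and 388 in parental and 419, 383 and 371 in LM2 cells. The groups overlapped, with a change of -0.017 ± 0.083 (SE) and a 95% interval of -0.19 to 0.15. Footprints per 1000 RNA, taken between libraries of the same replicate number, were 80.5, 71.7 and 75.4 in parental and 64.6, 55.7 and 54.3 in LM2 cells, so that all 3 LM2 ratios were below the parental ones. The labels do not say that equal numbers share a lysate. The change in translation efficiency was -0.39 ± 0.087 (SE), with an adjusted p of 0.0297 by limma. Of the 6 fits that left out both libraries of a replicate, only that without LM2 replicate 1 kept this call (adjusted p 0.00432). Without the others the adjusted p was 0.0614 to 0.206 and the change -0.42 to -0.34, and under quantile normalization the adjusted p was 0.0683 at -0.27. The call was also lost with a replicate block (adjusted p 0.0631 by limma) and with footprints and RNA paired by number (0.319).

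CDK1 was lower in both assays in HNRNPC knockdown cells. RNA was 4369, 4370.2 and 4285 in control guide cells and 3042, 3097 and 3491 in knockdown cells, and footprints were 389.9, 312 and 340.3 in control guide and 253, 249.99 and 245 in knockdown cells. Neither assay overlapped between the groups, and the 3 knockdown footprint values were close together. RNA fell by 0.44 ± 0.051 (SE) on the log2 scale with an adjusted p of 3.2e-08 by limma, and the change was -0.32 after centring. Footprints fell by 0.47 ± 0.10 (SE), with an adjusted p of 0.00048 by limma. The efficiency change was -0.033, with an interval of -0.27 to 0.20.

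CCNB1 (ENST00000256442, chr5:69167150-69178245, plus strand) encodes the cyclin that activates CDK1 at mitotic entry. Its RNA was 12202, 12254 and 11712 in parental and 11603, 12099 and 11467 in LM2 cells, with overlapping groups. The change was -0.041 ± 0.035 (SE), with an adjusted p of 0.34 by limma. Footprints were 613, 591 and 615 in parental and 577, 567 and 579 in LM2 cells. The LM2 values were the lower ones without overlap, but the change of -0.077 ± 0.077 (SE) had an adjusted p of 0.51 by limma. In the knockdown experiment RNA was 8111, 8184 and 8676 in control guide and 7337, 7700.01 and 7855 in knockdown cells. All knockdown values were below the controls, and RNA fell by 0.13 ± 0.042 (SE) on the log2 scale, with an adjusted p of 0.0095 by limma. After centring the change was -0.0099 (adjusted p 0.838), and under quantile normalization it was above 0, at 0.053. Without control guide replicate 3 or knockdown replicate 1 the adjusted p was 0.0626 and 0.072. Footprints were 453, 433 and 435 in control guide and 407, 399 and 430.1 in knockdown cells, a change of -0.096 ± 0.098 (SE) with an adjusted p of 0.471 by limma. Its efficiency change was -0.037 in LM2 cells and 0.029 in the knockdown, with intervals of -0.19 to 0.11 and -0.15 to 0.21.

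CCNA2 (ENST00000274026, chr4:121816444-121823883, minus strand) encodes the cyclin of S phase and G2. RNA was 9179, 10004 and 9713 in parental and 9049, 8962 and 9260.4 in LM2 cells, and footprints were 416, 394 and 396 in parental and 404, 371 and 431 in LM2 cells. Both assays overlapped between the groups. The RNA change was -0.083 ± 0.037 (SE) with an adjusted p of 0.0694 by limma, which became 0.0166 without parental replicate 1 at a change of -0.12. The footprint change was -0.0027 with an interval of -0.17 to 0.16. In the knockdown experiment RNA was 5744, 5831 and 5848 in control guide and 4476, 4079.6 and 4199 in knockdown cells, and footprints were 288, 292 and 253 in control guide and 204, 206 and 223 in knockdown cells. Every knockdown library was below every control library in both assays. RNA fell by 0.45 ± 0.045 (SE) on the log2 scale (adjusted p 1.68e-09 by limma), with a change of -0.34 after centring. Footprints fell by 0.39 ± 0.10 (SE) (adjusted p 0.00263 by limma), and the efficiency change was 0.059 with an interval of -0.15 to 0.27.

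CCND1 (ENST00000227507, chr11:69641156-69654474) encodes the G1 cyclin that couples growth signals to the cycle. Its RNA was 47017, 45765 and 46518 in parental and 51953, 53259 and 51887 in LM2 cells. All LM2 values were higher, and RNA rose by 0.17 ± 0.027 (SE) on the log2 scale, a 1.13-fold level with an adjusted p of 1.36e-05 by limma. Footprints went the other way, at 711, 709.99 and 783 in parental and 664, 580.3 and 564 in LM2 cells. The LM2 values were all lower, and footprints fell by 0.29 ± 0.082 (SE), a 0.819-fold level with an adjusted p of 0.00923 by limma. CCND1 was the 1 transcript of the 10 called higher in RNA and lower in footprints in the same experiment, a pair of calls not counted over all transcripts. Its footprints per 1000 RNA were 15.1, 15.5 and 16.8 in parental and 12.8, 10.9 and 10.9 in LM2 cells, again without overlap. Efficiency fell by 0.46 ± 0.088 (SE) on the log2 scale, with an adjusted p of 0.0114 by limma.

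The CCND1 calls in footprints and efficiency were lost when single replicates were left out. For footprints the adjusted p was 0.0663, 0.0599 and 0.066 without parental replicate 3, LM2 replicate 2 or LM2 replicate 3, at changes of -0.24, -0.26 and -0.24, and under quantile normalization the change was -0.041. For efficiency, only the fit without LM2 replicate 1 kept the call (adjusted p 0.000178), and without each of the other replicates the adjusted p was 0.0538 to 0.13 at changes of -0.49 to -0.42. The efficiency call was also lost with a replicate block (adjusted p 0.0778 by limma) and with footprints and RNA paired by number (0.295). In the knockdown experiment CCND1 RNA was 23854, 23152 and 23223 in control guide and 22357, 21997 and 22819.5 in knockdown cells. The groups did not overlap, but the change of -0.064 ± 0.036 (SE) had an adjusted p of 0.113 by limma, and it was 0.051 after centring and, past the threshold, 0.20 under quantile normalization (adjusted p 7.78e-06). Footprints were 486, 423 and 434 in control guide and 311, 381 and 414 in knockdown cells. The knockdown values were all lower, with replicate 1 furthest down, and footprints fell by 0.29 ± 0.11 (SE) (adjusted p 0.0358 by limma). Of the fits without 1 library only that without knockdown replicate 3 kept this call, the others having an adjusted p of 0.0552 to 0.195 at changes of -0.33 to -0.17. After centring the call was lost too, at -0.24 (adjusted p 0.0663). The efficiency change was -0.22 ± 0.12 (SE), with an adjusted p of 0.325 by limma, and under quantile normalization -0.39 with 0.0068.

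**Figure D3:**
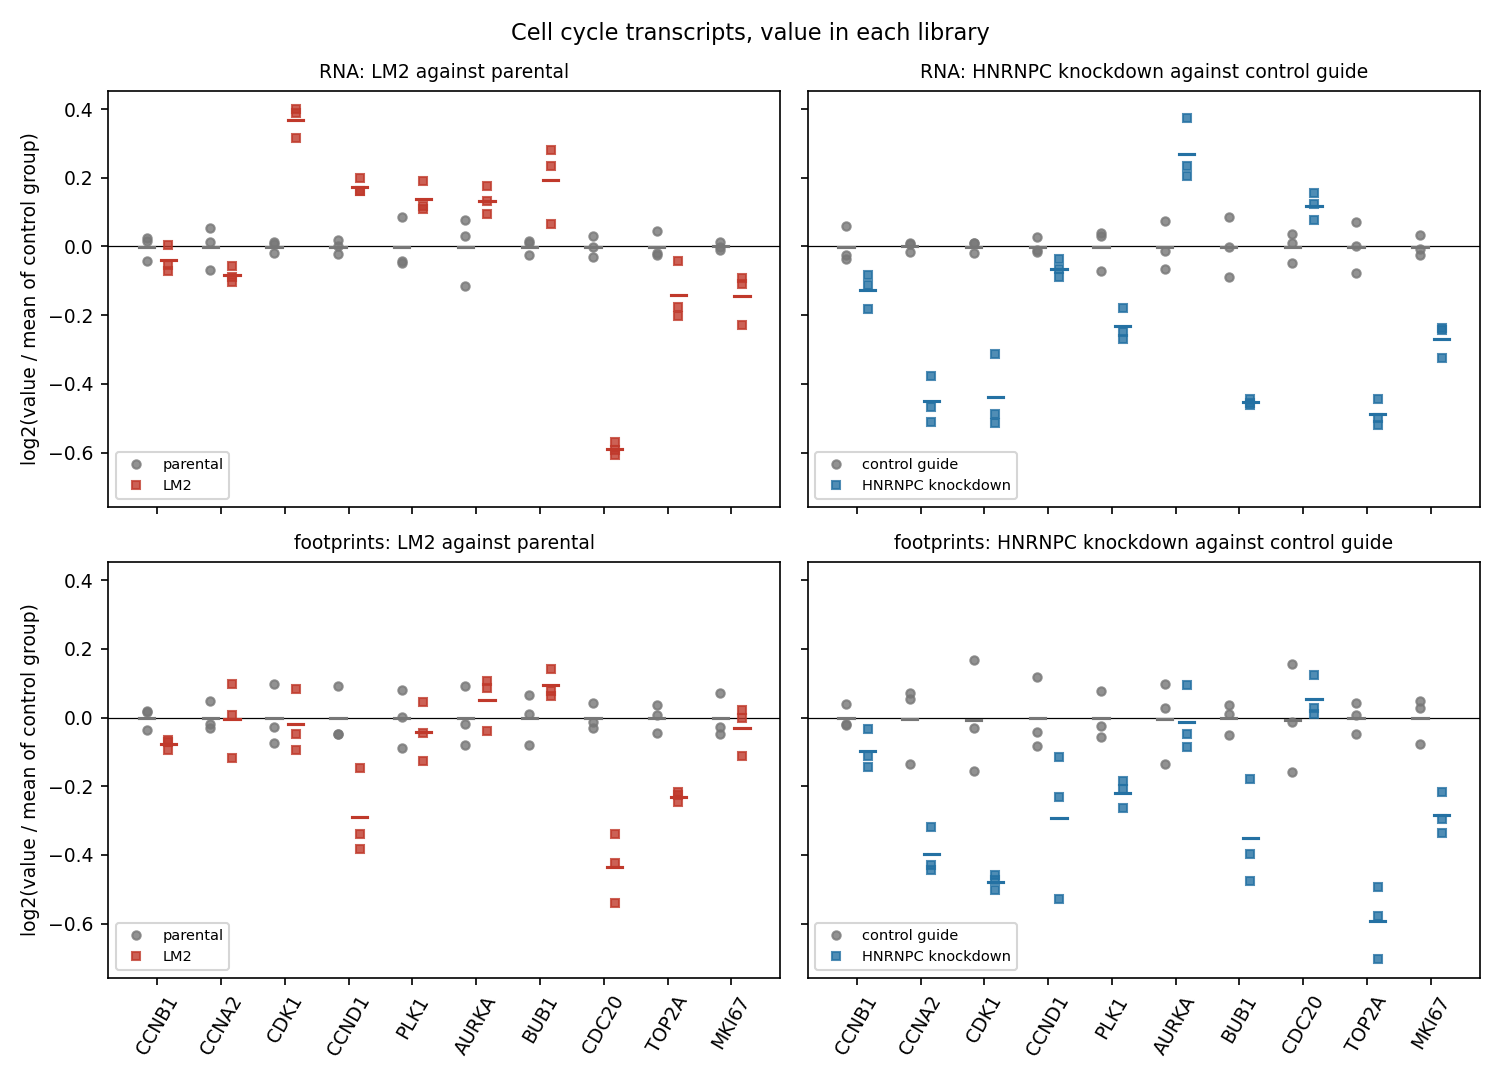
Value of each of the 10 transcripts in every library, as log2 of the value over the mean of the control group (vertical axis), for RNA (top) and footprints (bottom). Grey circles are the control libraries (parental or control guide), coloured squares are the LM2 or knockdown libraries and short bars are group means of 3 replicates. CDK1 and CDC20 RNA in LM2 cells and TOP2A, CCNA2 and CDK1 in knockdown cells lie clear of their controls.

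PLK1 (ENST00000300093, chr16:23678889-23690367, plus strand) encodes a kinase needed for spindle assembly and the exit from mitosis. RNA was 8401, 9210.3 and 8434 in parental and 9917, 9426 and 9357 in LM2 cells. The LM2 values were all higher, by a small margin over parental replicate 2, and RNA rose by 0.14 ± 0.040 (SE) on the log2 scale (adjusted p 0.0058 by limma). Footprints, at 468, 439.5 and 494 in parental and 453, 482 and 428 in LM2 cells, overlapped, with a change of -0.040 ± 0.082 (SE). In the knockdown experiment RNA was 6587, 6103 and 6543 in control guide and 5664, 5396 and 5321 in knockdown cells. It fell by 0.23 ± 0.044 (SE) (adjusted p 4.56e-05 by limma), with a change of -0.12 after centring and, no longer past the threshold, -0.025 under quantile normalization. Footprints were 307, 280.2 and 287 in control guide and 243, 252 and 256 in knockdown cells. Though all knockdown values were lower, the change of -0.22 ± 0.097 (SE) had an adjusted p of 0.0803 by limma. The efficiency change was -0.18 in LM2 cells and 0.014 in the knockdown, with adjusted p-values of 0.371 and 0.95 by limma.

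AURKA (ENST00000312783, chr20:56369390-56392215) encodes the kinase that matures centrosomes. It was the 1 transcript of the 10 with RNA called higher in both experiments, a pair of calls not counted over all transcripts. RNA was 6472, 7391 and 7154 in parental and 7481, 7908 and 7675 in LM2 cells, a rise of 0.14 ± 0.045 (SE) on the log2 scale (adjusted p 0.0144 by limma). Parental replicate 1 was the lowest, and without it the adjusted p was 0.124 at a change of 0.080. Without LM2 replicate 2 it was 0.0615 at 0.12. RNA in the other experiment was 4479, 4646 and 4940.3 in control guide and 5515, 5399 and 6071 in knockdown cells. It rose by 0.27 ± 0.049 (SE), a 1.21-fold level (adjusted p 2.46e-05 by limma), and the change was 0.39 after centring. Its footprints were 331, 317 and 358 in parental and 361, 326 and 356 in LM2 cells, and 238, 249 and 212 in control guide and 226, 219.6 and 249 in knockdown cells. Both pairs overlapped, with changes of 0.052 and -0.0096 and 95% intervals of -0.12 to 0.22 and -0.22 to 0.20. Under quantile normalization the LM2 change was 0.23 (adjusted p 0.0223). Footprints per 1000 RNA were 53.0, 53.7 and 43.0 in control guide and 40.9, 40.7 and 41.0 in knockdown cells. The knockdown ratios were the lower ones, and the efficiency change of -0.28 ± 0.11 (SE) had an adjusted p of 0.146 by limma. That change was -0.35 after centring (adjusted p 0.0707 by limma) and -0.32 under quantile normalization (0.0598), neither past the threshold.

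BUB1 (ENST00000302759, chr2:110637528-110678063, minus strand) encodes a kinase of the spindle checkpoint at the kinetochore. RNA was 5129.5, 4999.9 and 5144 in parental and 5327, 6184 and 5992 in LM2 cells, with LM2 replicate 1 closest to the parental values. It rose by 0.19 ± 0.048 (SE) on the log2 scale (adjusted p 0.00202 by limma). Footprints, at 366, 353 and 332 in parental and 366, 386 and 369.6 in LM2 cells, met at the edge of the groups, and the change of 0.095 ± 0.082 (SE) had an adjusted p of 0.431 by limma, which under quantile normalization was 0.00599 at 0.28. Knockdown cells had less of both. RNA was 3356, 3569 and 3786 in control guide and 2627, 2603 and 2591 in knockdown cells, the knockdown replicates being nearly equal. RNA fell by 0.45 ± 0.051 (SE) (adjusted p 1.91e-08 by limma), with a change of -0.34 after centring. Footprints were 194, 202 and 206 in control guide and 177, 152 and 144 in knockdown cells, all lower in the knockdown, and fell by 0.35 ± 0.10 (SE) (adjusted p 0.0096 by limma), a call lost under quantile normalization (adjusted p 0.066 at -0.23). The efficiency change was -0.099 in LM2 cells and 0.10 in the knockdown, with adjusted p-values of 0.686 and 0.633 by limma.

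CDC20 (ENST00000310955, chr1:43358981-43363203, plus strand) encodes the activator of the anaphase-promoting complex that releases sister chromatids. It had the lowest RNA change of the 10 in LM2 cells. RNA was 11903, 12420.4 and 12131 in parental and 8192, 7979 and 8058 in LM2 cells, and footprints were 778, 769 and 809 in parental and 621, 586 and 540.2 in LM2 cells. Every LM2 value was far below the parental values in both assays. RNA fell by 0.59 ± 0.034 (SE) on the log2 scale, a 0.665-fold level (adjusted p 6.35e-12 by limma). Footprints fell by 0.43 ± 0.080 (SE), a 0.741-fold level (adjusted p 9.76e-05 by limma). Both calls held in all 17 alternatives, footprints with a change of -0.48 to -0.19 and RNA of -0.60 to -0.51. Footprints per 1000 RNA were 65.3, 61.9 and 66.7 in parental and 75.8, 73.4 and 67.0 in LM2 cells, and the efficiency change of 0.16 ± 0.079 (SE) had an adjusted p of 0.396 by limma, and of 0.00914 at 0.32 under quantile normalization. Knockdown RNA went the other way, at 5568, 5798 and 5903 in control guide and 6416, 6067 and 6275 in knockdown cells. It rose by 0.12 ± 0.042 (SE) (adjusted p 0.0141 by limma) and the change was 0.23 after centring. Without control guide replicate 1 or knockdown replicate 1 the adjusted p was 0.0661 and 0.072, at changes of 0.096 and 0.10. Footprints were 476, 424 and 383 in control guide and 431, 467 and 436 in knockdown cells, overlapping, with a change of 0.060 ± 0.10 (SE).

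TOP2A (ENST00000423485, chr17:40388525-40417896, minus strand) encodes the topoisomerase that separates intertwined chromosomes and is the target of anthracyclines. RNA was 25594, 26868 and 25686 in parental and 22636, 25317 and 23055 in LM2 cells. The LM2 values were all lower, LM2 replicate 2 only just, and RNA fell by 0.14 ± 0.037 (SE) on the log2 scale (adjusted p 0.00323 by limma). Under quantile normalization this call was lost, at -0.038 (adjusted p 0.359). Footprints were 1349, 1323 and 1275 in parental and 1124, 1109 and 1132 in LM2 cells, clearly apart, and fell by 0.23 ± 0.078 (SE) (adjusted p 0.0283 by limma). This footprint call was kept only without LM2 replicate 1 among the fits that left out a library, with an adjusted p of 0.0524 to 0.144 in the others at changes of -0.25 to -0.21. The footprint change was above 0 under quantile normalization, at 0.083. TOP2A in knockdown cells had the lowest change of the 10 in both assays. RNA was 20400.05, 21538 and 22619 in control guide and 15233, 15012 and 15825 in knockdown cells, and footprints were 909, 932 and 875 in control guide and 607, 557 and 643 in knockdown cells. No knockdown library reached the lowest control. RNA fell by 0.49 ± 0.041 (SE), a 0.714-fold level (adjusted p 6.9e-11 by limma), with a change of -0.37 after centring. Footprints fell by 0.59 ± 0.11 (SE), a 0.664-fold level (adjusted p 4.66e-05 by limma). Both knockdown calls held in all 17 alternatives. The efficiency change was -0.090 and -0.10 in the LM2 and knockdown comparisons, with intervals of -0.25 to 0.073 and -0.31 to 0.11.

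MKI67 (ENST00000368654, chr10:128096659-128126423, minus strand) encodes Ki-67. RNA was 41060.4, 41459.8 and 40826 in parental and 38130.3, 38544 and 35109 in LM2 cells, all LM2 values being lower and replicate 3 the lowest. It fell by 0.14 ± 0.033 (SE) on the log2 scale (adjusted p 0.000871 by limma). Footprints, at 813, 872 and 802 in parental and 767, 828 and 842 in LM2 cells, overlapped, with a change of -0.030 ± 0.079 (SE), which under quantile normalization was 0.24 with an adjusted p of 0.00758. In the knockdown experiment RNA was 26762, 27883 and 27098 in control guide and 23017, 23107 and 21736 in knockdown cells, and footprints were 546, 538 and 501 in control guide and 418, 431 and 455 in knockdown cells. Both were lower in every knockdown library. RNA fell by 0.27 ± 0.038 (SE) (adjusted p 6.27e-07 by limma), with a change of -0.15 after centring and -0.025, not past the threshold, under quantile normalization. Footprints fell by 0.28 ± 0.099 (SE) (adjusted p 0.0261 by limma). This call was lost without control guide replicate 1, control guide replicate 2 or knockdown replicate 2 (adjusted p 0.101, 0.103 and 0.093), at changes of -0.26, -0.27 and -0.28. The efficiency change was 0.11 in LM2 cells and -0.012 in the knockdown, with intervals of -0.057 to 0.28 and -0.21 to 0.18.

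RNA and footprint calls were then set side by side within each experiment. The same pairs of calls were not counted over all transcripts tested, so their usual share is not known. Over all transcripts, whatever their RNA call, footprints passed as lower for 14.5% in LM2 cells and 20.7% in the knockdown. These are not the shares among transcripts with lower or higher RNA, so the counts below cannot be read against them. In LM2 cells 4 of the 5 transcripts with higher RNA (CDK1, PLK1, AURKA and BUB1) had no footprint change past the threshold, and the other, CCND1, had lower footprints. Of the 3 with lower RNA, CDC20 and TOP2A also had lower footprints and MKI67 did not pass. In the knockdown, 5 of the 7 transcripts with lower RNA (TOP2A, BUB1, CCNA2, CDK1 and MKI67) had lower footprints too, while CCNB1 and PLK1 did not pass, and the 2 with higher RNA, AURKA and CDC20, did not pass. SEs of the footprint changes were 0.077 to 0.108, above the 0.027 to 0.051 of the RNA changes, so a footprint change that missed the threshold does not show that footprints stayed level.

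**Figure D4:**
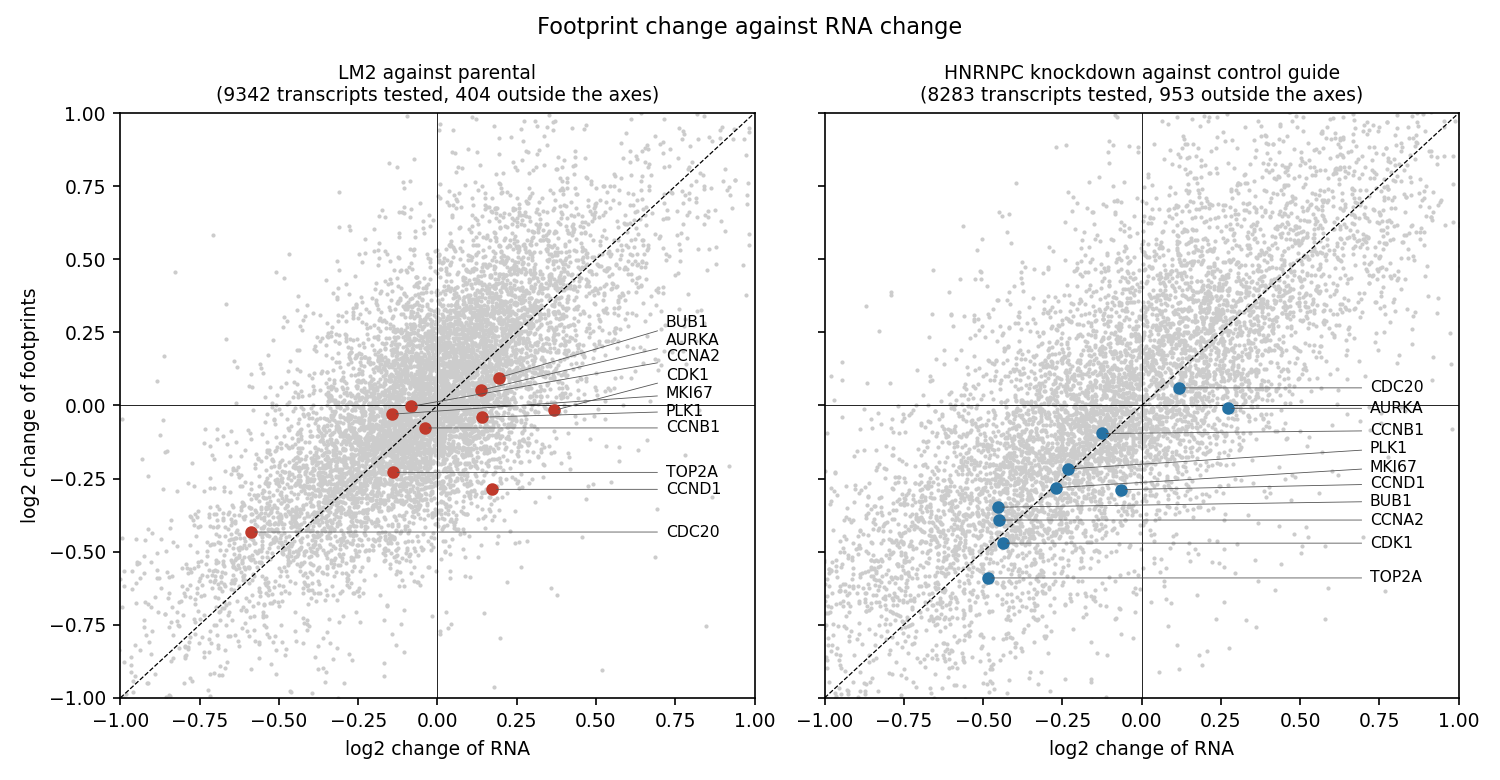
Log2 change of footprints (vertical axis) against log2 change of RNA (horizontal axis) for all transcripts tested (grey) and the 10 cell cycle transcripts (coloured and named), in LM2 against parental (left) and HNRNPC knockdown against control guide (right), with equal change on the dashed line. In the left panel CCND1 lies right of 0 in RNA and below 0 in footprints. In the right panel 8 of the 10 lie left of 0 in RNA, as does the median of all tested, at -0.105. After centring, CCND1 RNA in the right panel would lie at 0.051.

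Across the experiments, which share no libraries and were normalized separately, the RNA calls differed by gene. As deposited, TOP2A and MKI67 were lower in both, AURKA was higher in both, and CDC20 was lower in LM2 cells and higher in the knockdown. CDK1, PLK1 and BUB1 were higher in LM2 cells and lower in the knockdown, CCNB1 and CCNA2 passed in the knockdown and not in LM2 cells, and CCND1 in LM2 cells and not in the knockdown. Under quantile normalization the calls of TOP2A in LM2 cells and of CCNB1, PLK1 and MKI67 in the knockdown were lost, and CCND1 in the knockdown passed as higher. With no variance trend, and also with the spread from all 12 libraries, the LM2 calls of TOP2A, MKI67, AURKA and PLK1 were lost. So were the knockdown calls of CCNB1 and CDC20. The difference between the experiments was not tested, and these pairs of calls were not counted over all transcripts.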

How the data were processed

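Footprint and RNA libraries came from 4 cell groups with 3 replicates each. What the authors deposited, per the file headers, is a normalized signal for every transcript in 1 table per experiment, and the scaling is not given in the sources used here. Cutadapt 2.3, UMI-tools, Bowtie2 2.3.5, SAMtools and the hg38 build are listed in the submitters' processing notes. Reads shared by transcripts or similar genes may be split in ways not given there.

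Samples were grouped by their titles, the parental columns being named for the cell line alone. The 10 cell cycle transcripts, every one of which is named, and all gene lists were chosen with earlier results of these data known. Of their IDs 0 matched the reference gene tables, so other cell cycle genes, cell type markers and HNRNPC were not analysed here. Transcripts with a mean of at least 10 in each assay were tested as log2(value + 1) with limma 3.58.1 in R 4.3.3, using a variance trend, two-sided p-values and Benjamini-Hochberg adjustment over all transcripts of a table, with a threshold of 0.05. Fold changes on this scale are slightly understated. The efficiency test was the assay-by-group interaction term over the 12 libraries of a table. No test crossed tables, which were normalized separately. No columns were identical. The tests were checked on simulated data with 200 transcripts changed in footprints alone and 200 others changed in both assays. Alternatives were pseudocounts of 0.5 and 5, no filter or a minimum of 50, TMM, quantile and median scaling, blocks by replicate number, fits with array weights, with no variance trend or with a spread estimated over 12 libraries, and fits without each replicate in turn.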

Additional observations from a re-analysis of the deposited data

How the results depend on the processing

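Of the 60 changes (10 transcripts by 3 readouts by 2 experiments) under 17 alternatives each, 896 values kept their direction and side of the threshold, 67 lost the threshold with the same sign, 6 gained it with the same sign and 51 changed sign. Of those 51, 2 also lost the threshold (TOP2A LM2 footprints and CCNB1 knockdown RNA) and 2 gained it (MKI67 LM2 footprints and CCND1 knockdown RNA), all 4 under quantile normalization. The calls that held in every alternative were CDK1, CCND1, BUB1 and CDC20 in LM2 RNA, CDC20 in LM2 footprints, TOP2A, BUB1, CCNA2, CDK1 and AURKA in knockdown RNA, and TOP2A, CDK1 and CCNA2 in knockdown footprints. Other pseudocounts, no filter on low values and a minimum mean of 50 moved no count of calls among the 10 by over 1.5 times.

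The number of LM2 RNA calls was 4 with no variance trend and 4 with the spread from all 12 libraries, against 8. LM2 footprint calls were 1 with no variance trend and 1 to 3 without single libraries, against 3, the value 1 arising without parental replicate 3, LM2 replicate 2 or LM2 replicate 3. LM2 efficiency calls were 0 with no variance trend and 0 to 2 without single replicates, against 2, the 2 calls being kept without LM2 replicate 1. Knockdown footprint calls were 3 with no variance trend, against 6, and knockdown efficiency calls were 1 (CCND1, -0.39) under quantile normalization, against 0. Over all transcripts, LM2 efficiency calls numbered 152, and 18 with no variance trend, 311 with array weights, and 25 to 310 without single replicates. Knockdown efficiency calls numbered 452 over all, 244 with no variance trend and 178 to 370 without single replicates. LM2 footprint calls numbered 2223 over all, with 1173 without the trend and 3434 with the spread from all 12 libraries, and LM2 RNA calls 5017 with 2701 under the latter. With a minimum mean of 50, which tests fewer transcripts, LM2 RNA, knockdown RNA and knockdown footprint calls were 3156, 3101 and 1844, against 5017, 6084 and 2998.

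Between groups, correlations of deviations between same-numbered RNA libraries were -0.195 to 0.035 in the LM2 table and -0.018 to -0.009 in the knockdown table. Within groups, same-numbered footprint and RNA libraries gave -0.006 to 0.06 (parental), 0.015 to 0.113 (LM2), 0.011 to 0.126 (control guide) and 0.015 to 0.068 (knockdown). Those of different numbers gave -0.064 to 0.008, -0.071 to 0.039, -0.107 to 0.035 and -0.077 to 0.02. Footprints correlated best with RNA of their own number in 2, 1, 2 and 3 of 3. These values do not settle whether equal numbers share a lysate. With the replicate block LM2 efficiency calls were 0 among the 10 and 43 over all, and knockdown efficiency calls 0 and 183. The adjusted p of LM2 efficiency was then 0.0778 for CCND1 and 0.0631 for CDK1. LM2 footprint calls were 2 (TOP2A lost, adjusted p 0.0798) and knockdown footprint calls 4 (CCND1 and MKI67 lost, 0.0834 and 0.105). With the replicate block by lysate, which pairs footprints and RNA by number, LM2 efficiency calls were 0 among the 10 and 0 over all, with adjusted p-values of 0.295 for CCND1 and 0.319 for CDK1, and knockdown ones 0 and 75. The block changed no RNA call.

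Signs turned mostly where the change was not past the threshold. Under quantile normalization, LM2 changes became 0.023 (CCNB1) and 0.023 (CCNA2) in RNA, 0.15 (CCNB1), 0.19 (CCNA2), 0.17 (CDK1), 0.18 (PLK1), 0.083 (TOP2A) and 0.24 (MKI67) in footprints, and 0.13 (CCNB1), 0.013 (AURKA), 0.014 (BUB1) and 0.12 (TOP2A) in efficiency. In the knockdown they became 0.053 (CCNB1) and 0.20 (CCND1) in RNA, 0.13 (AURKA) in footprints, and -0.061 (CCNB1) and -0.045 (PLK1) in efficiency. TMM scaling gave 0.0003 for CCNA2 footprints in LM2 cells, 0.017 for CCND1 RNA in the knockdown, and knockdown efficiency changes of -0.046 (CCNB1), -0.016 (CCNA2) and -0.061 (PLK1). Centring gave, in the knockdown, 0.051 for CCND1 RNA, 0.037 for AURKA footprints, and efficiency changes of -0.040 (CCNB1), -0.010 (CCNA2) and -0.055 (PLK1). Array weights gave 0.008 for CDK1 efficiency in the knockdown.

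Without single libraries, LM2 footprint changes ran from -0.054 to 0.054 (CCNA2), -0.068 to 0.033 (CDK1), -0.084 to 0.0019 (PLK1) and -0.056 to 0.011 (MKI67). Knockdown footprint changes ran from -0.075 to 0.041 (AURKA) and -0.016 to 0.14 (CDC20). Knockdown efficiency changes ran from -0.010 to 0.068 (CCNB1), -0.011 to 0.12 (CCNA2), -0.11 to 0.049 (CDK1), -0.021 to 0.063 (PLK1), -0.15 to 0.045 (CDC20) and -0.074 to 0.027 (MKI67). The causes of these shifts were not tested.

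Footprint depth is unknown, and its part in the calls was not tested. Of simulated log2 changes of 0.5, tests of efficiency found 39% (LM2) and 20% (knockdown), tests of footprints 55.5% and 45.5%, and tests of RNA 94% and 92%, over 9342 and 8283 transcripts. False calls made up 5.43% and 4.12% of the simulated efficiency calls, 3.28% and 5.24% of the footprint calls, and 5.83% and 6.8% of the RNA calls. The SEs of the 10 efficiency changes were 0.071 to 0.092 and 0.086 to 0.125, below the medians over all of 0.166 and 0.184. The targeted gene was not analysed here.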
